A study of Mus musculus with 4 samples.

Results

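The 9 genes of fatty acid binding and activation studied here were compared between macrophages given a fat-rich and a control layer of necrotic fat. The genes were chosen by name, as 3 fatty acid binding proteins (Fabp3, Fabp4 and Fabp5), 2 fatty acid transport proteins (Slc27a1 and Slc27a4) and 4 long-chain acyl-CoA synthetases (Acsl1, Acsl3, Acsl4 and Acsl5). All 9 were listed among the 17013 genes of the series, and all 9 were among the 12470 genes tested. Wild-type mouse bone marrow-derived macrophages, grown with M-CSF from marrow that the study's methods describe as C57BL/6 and male, stood on porous inserts above medium made from freeze-thawed abdominal fat. Both groups received artificial necrotic bone fluid (aNBF), an extract of freeze-thawed bone and marrow, for 24 h. Control cultures (Con) had medium drawn from the middle layer of this fat, and fat-rich cultures (Fat) had medium drawn from its top layer. Each medium had 2 libraries (4 in all), and the labels do not say whether these came from separate cultures or animals, so the p-values measure only the spread between these libraries, which may be technical. The age of the mice was not given, and the fat was abdominal, not marrow, fat.

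A fatty acid that enters a macrophage is poorly soluble in water. Fatty acid binding proteins (FABPs) are small cytosolic carriers that hold it and pass it to membranes, enzymes and nuclear receptors. Acyl-CoA synthetases of the ACSL family join it to coenzyme A, which traps it in the cell and is needed before it can be burned in mitochondria, stored as triglyceride or built into phospholipids. The fatty acid transport proteins of the SLC27A family promote fatty acid uptake and also have acyl-CoA synthetase activity.

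The reads recovered from the deposited CPM summed to between 33573852 and 40785872 per library over the 17013 genes listed. For some libraries this was above the depth range that the study's methods state, and the reason was not tested. The deposited CPM scale reads by library size, and 1 read corresponded to between 0.0244 and 0.0295 CPM. Limits based on reads cover counting error only. The intervals given for fold changes are limma's and rest on the spread between replicate libraries. Between the replicates of a medium, the variance of reads per gene was 16.3 times (Con) and 15.9 times (Fat) what counting alone gives, over 9760 genes that averaged 5 CPM or more. All 4 libraries went against the stated male sex of the mice, with Xist, the RNA of the inactive X chromosome, at 303.6 to 427.6 CPM and the Y-linked Ddx3y at 0 reads in Con and 2 reads in each Fat library. The 4 libraries were alike in this, so no comparison here could be repeated without them. Of 8 macrophage markers, 7 were found under the symbols used and had more than 3 reads in every library, with a sum between 32779 and 34746 CPM in Con and between 25917 and 27440 CPM in Fat. Most of this sum was Lyz2, the lysozyme gene, at 28720 and 26819 CPM in Con and 21516 and 20347 CPM in Fat. Csf1r, Mertk, Fcgr1 and Cd14 were also below Con in both Fat libraries, while the media overlapped for Cd68 (778 and 870 CPM in Con, 892 and 864 CPM in Fat) and Itgam (2598 and 2735 CPM in Con, 2890.4 and 2695 CPM in Fat). The F4/80 gene was listed under its older symbol Emr1, at 1216 and 1141 CPM in Con and 1064 and 1000 CPM in Fat. Stromal markers, among them the collagen genes Col1a1 and Col1a2, summed to between 512.5 and 656.4 CPM over both media. Lymphocyte markers summed to 20.3 and 18.9 CPM in Con and to 15.5 and 16.9 CPM in Fat. Endothelial markers summed to 1.53 and 1.97 CPM in Con and to 3.11 and 2.54 CPM in Fat. The erythroid markers were at 0 or 1 read. In bulk RNA, fewer cells of a type and less RNA per cell cannot be told apart.

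The response of the 9 genes was split. One, Slc27a1, was called higher in Fat, 2, Fabp5 and Acsl5, were called lower, and 6 were not called. A call is an adjusted p-value under 0.05 in limma's two-sided test on log2(CPM + 0.1), with Benjamini-Hochberg adjustment over the 12470 genes. By this test 3.99% of all tested genes were called higher and 5.0% lower, 9.0% in all. The median log2 fold change of the 9 genes was -0.16, against 0.01 over all genes tested. Both Fat libraries lay above both Con libraries for 3 of the 9 genes and below them for 5. Among all tested genes these shares were 29.4% and 26.2%, and 55.6% of all tested genes had groups that did not overlap in either direction, against 8 of these 9. Acsl4 was the gene whose groups overlapped.

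**Figure D1:**
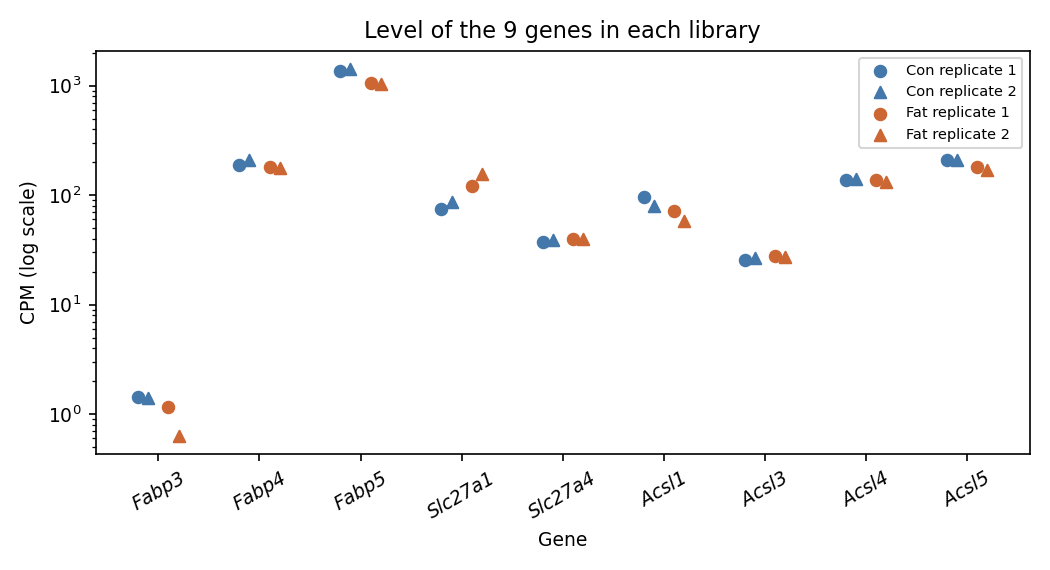
CPM of the 9 genes on a log axis, with 1 point for each library (circles, replicate 1; triangles, replicate 2; blue, Con; orange, Fat). Fabp5 is at about 1045 to 1419 CPM and Fabp3 at 0.634 to 1.44 CPM, and the Fat points of Slc27a1 lie above its Con points while those of Fabp5 and Acsl5 lie below.

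Among the binding proteins, Fabp5, the epidermal FABP that is abundant in macrophages, stood at 1350 CPM in Con replicate 1, 1419 CPM in Con replicate 2, 1066 CPM in Fat replicate 1 and 1045 CPM in Fat replicate 2. Further values are given in this library order. Both Fat libraries were low, and the groups did not overlap. The mean fell from 1384 ± 49.0 CPM to 1056 ± 15.1 CPM (SD, n = 2 each). Limma put this change at -0.39 on the log2 scale, with a standard error of 0.07 and an adjusted p of 0.0165. With each library left out in turn, the log2 fold change lay between -0.43 and -0.35. Its direction could not reverse, as the groups did not overlap. The call was lost without Fat replicate 2. Of the 75-base stretches of its transcripts, 9.17% were also found in other genes, mostly Gm6166 and Gm14328. Of the 7 macrophage markers, 5 were lower in both Fat libraries too, Lyz2 among them, as was Emr1, and Cd68 and Itgam overlapped between the media. Their part in this result was not tested.

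Fabp4, the adipocyte FABP, which macrophages make as well, was at 189.2 and 208.4 CPM in Con and at 180.0 and 175.5 CPM in Fat. The Fat libraries were the lower pair by a narrow margin. Its log2 fold change was -0.16 (95% interval -0.31 to -0.01), which was not called (limma adjusted p = 0.174) and was not called in any of the 14 alternatives. With 1 library left out it lay between -0.23 (without Con replicate 1) and -0.090 (without Con replicate 2). Fat cell markers were higher in Fat. The 12 adipocyte markers, with Fabp4 left out of the list, summed to 0.206 and 0.240 CPM in Con and to 11.3 and 5.85 CPM in Fat. In Con, Adipoq, Lep, Cidea, Pck1, Thrsp and Adrb3 were at 0 reads in both libraries, and no marker exceeded 3 reads in both. In Fat, 8 of the 12 exceeded 3 reads in both libraries, led by Car3 with 269 and 139 reads. The part of this adipocyte RNA in the level of Fabp4 was not tested.

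Fabp3, the heart and muscle FABP, was the scarcest of the 9 genes, with 49 and 53 reads in Con and 43 and 26 reads in Fat. The Fat libraries were the lower pair, but Fat replicate 1 lay closer to Con than to Fat replicate 2. The log2 fold change was -0.67 with a 95% interval from -1.36 to 0.01 (limma adjusted p = 0.215). It rested on the Fat libraries, at -1.06 without Fat replicate 1 and -0.29 without Fat replicate 2, and limma called it in neither case (adjusted p = 0.0637 and 0.678). A further limit is that 42.0% of its stretches were shared with other genes, chiefly its pseudogene Fabp3-ps1, and that 81 of its 823 exon bases overlap Zcchc17 on the opposite strand.

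Per gene length, in TPM, Fabp5 carried most of the FABP transcripts. Its share of the summed TPM of the 9 FABP genes listed was 78.5% and 77.5% in Con and 74.0% and 74.4% in Fat. Fabp4 held 16.4% and 16.9% in Con and 18.6% in each Fat library. The remainder was nearly all Fabp7, the brain FABP, at 4.98% and 5.50% in Con and 7.29% and 6.96% in Fat. The Fabp5 level was 4.80 and 4.58 times that of Fabp4 in Con, and 3.98 and 4.0 times in Fat. The Fat ratios were the lower pair. The summed FABP level was 4035 ± 126.2 TPM in Con and 3307 ± 61.4 TPM in Fat (SD, n = 2 each). For these shares, ratios and sums, a two-sided exact permutation test with 2 libraries a side cannot go below p = 0.333, and p was 0.333 for each FABP share, ratio and sum given here. In CPM, Fabp7 was at 68.4 and 80.6 in Con and 83.9 and 78.2 in Fat, and its log2 fold change of 0.13 was not called (limma adjusted p = 0.422).

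**Figure D2:**
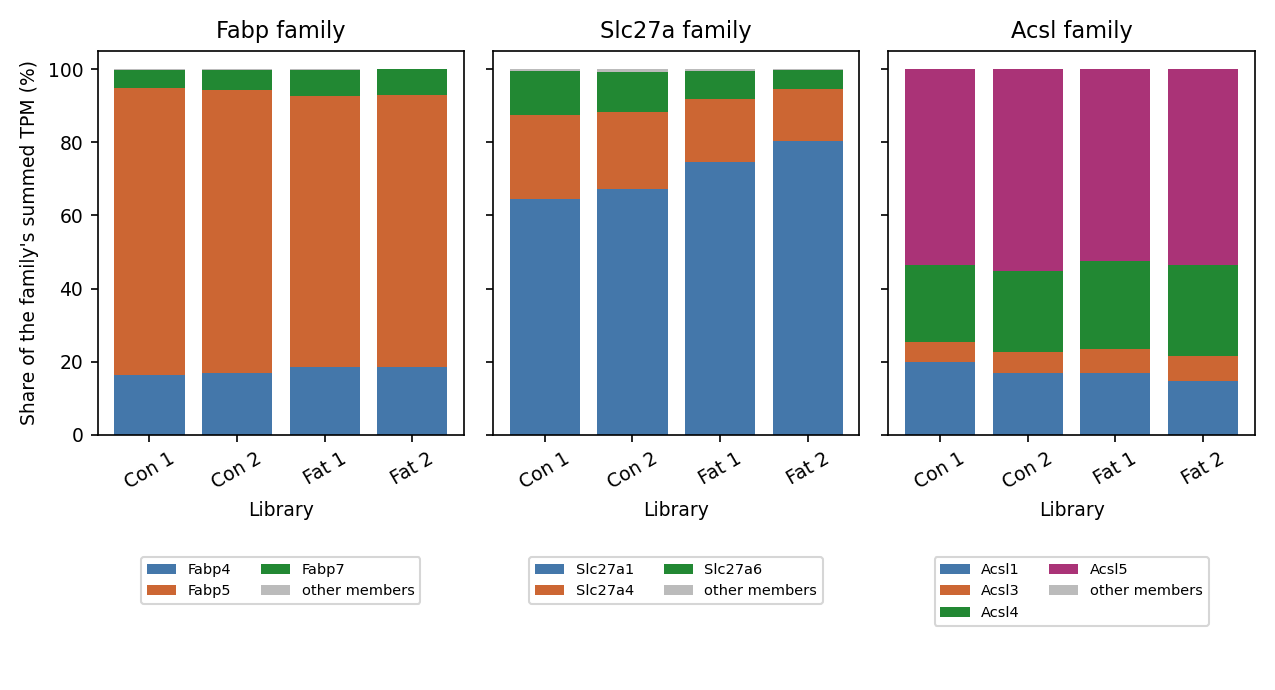
Stacked bars give the share (%) of each family's summed TPM held by its genes in each of the 4 libraries, for the Fabp, Slc27a and Acsl families. The Slc27a1 block takes 64.6% and 67.1% in Con and 74.7% and 80.3% in Fat, and the Fabp5 block 78.5% and 77.5% in Con and 74.0% and 74.4% in Fat.

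Slc27a1, which encodes the transport protein FATP1, was the 1 gene of the 9 called higher. Its values were 74.2 and 86.7 CPM in the Con libraries and 122.3 and 155.1 CPM in the Fat libraries. Both Fat libraries were high, Fat replicate 2 the higher of them. The mean rose 1.72-fold on the log2(CPM + 0.1) scale, from 80.4 ± 8.82 to 138.7 ± 23.2 CPM (SD, n = 2 each). In log2 units this was 0.78, with a standard error of 0.12, a 95% interval from 0.50 to 1.05 and a limma adjusted p of 0.0104. It stayed called with each library left out in turn, with log2 fold changes between 0.61 and 0.95, and lost its call without limma's mean-variance trend (adjusted p = 0.109). Of its 75-base stretches, 1.61% were found in other genes, and its exons overlapped no other gene in GENCODE vM21. The adipocyte markers summed to 11.3 CPM in Fat replicate 1 and 5.85 CPM in Fat replicate 2, and the part of this RNA in the level of Slc27a1 was not tested.

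RefSeq lists 3 start sites for Slc27a1, which counts per gene do not separate. They are shown because this gene was called higher, and the Acsl5 start because Acsl5 was called lower. Each window runs from 250 bases before to 50 bases after the start (300 in all), on the plus strand of GRCm38.p6. Matches to the GC box (GGGCGG) and CCAAT box (CCAAT), on either strand, are in capitals. The windows lie at chr8:71568621-71568920, chr8:71569347-71569646 and chr8:71570344-71570643 for Slc27a1 and at chr19:55253119-55253418 for Acsl5.
Slc27a1, start 1: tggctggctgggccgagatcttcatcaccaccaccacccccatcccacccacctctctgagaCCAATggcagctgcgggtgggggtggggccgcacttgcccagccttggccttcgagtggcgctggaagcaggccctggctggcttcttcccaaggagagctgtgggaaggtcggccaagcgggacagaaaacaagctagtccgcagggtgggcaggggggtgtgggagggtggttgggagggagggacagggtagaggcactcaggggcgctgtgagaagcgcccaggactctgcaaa
Slc27a1, start 2: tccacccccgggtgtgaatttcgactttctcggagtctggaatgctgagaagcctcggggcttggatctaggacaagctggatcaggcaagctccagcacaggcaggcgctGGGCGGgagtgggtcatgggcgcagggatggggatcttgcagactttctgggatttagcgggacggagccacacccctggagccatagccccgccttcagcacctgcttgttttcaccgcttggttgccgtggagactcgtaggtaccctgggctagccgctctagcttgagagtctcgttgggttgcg
Slc27a1, start 3: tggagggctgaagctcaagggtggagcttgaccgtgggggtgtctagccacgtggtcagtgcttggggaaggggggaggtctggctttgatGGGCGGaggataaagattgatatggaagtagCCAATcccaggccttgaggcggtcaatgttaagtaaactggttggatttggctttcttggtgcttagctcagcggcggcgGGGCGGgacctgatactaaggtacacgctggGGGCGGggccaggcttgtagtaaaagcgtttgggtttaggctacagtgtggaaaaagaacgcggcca
Acsl5: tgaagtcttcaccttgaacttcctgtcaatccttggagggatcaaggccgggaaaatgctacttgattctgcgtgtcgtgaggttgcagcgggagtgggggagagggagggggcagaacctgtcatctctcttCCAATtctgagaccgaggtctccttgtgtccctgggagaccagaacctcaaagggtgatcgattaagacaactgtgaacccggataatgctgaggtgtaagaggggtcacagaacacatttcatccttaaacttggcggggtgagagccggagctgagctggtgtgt

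Promoters were listed for 7 of the 9 genes, 10 in all, and not for Fabp4 and Fabp5. The half-site AGGTCA of the nuclear receptors, the PPARs that bind fatty acids among them, was searched on both strands and matched 0 of the 10 and 16.3% of all 32851 promoters of this length. A GC box was in 6 of the 10 and a CCAAT box in 5 of the 10, against 35.7% and 37.4% of all promoters. These are descriptions of the letters in these windows and say nothing of the factors.

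Slc27a4, which encodes FATP4, lay between 37.5 and 40.0 CPM in all 4 libraries, with the Fat libraries the higher pair by a narrow margin. Its log2 fold change was 0.05 with a 95% interval from -0.09 to 0.19 (limma adjusted p = 0.671). The Slc27a1 level in TPM was 2.84 and 3.17 times that of Slc27a4 in Con and 4.39 and 5.64 times in Fat, so the ratio was higher in both Fat libraries (exact permutation p = 0.333). Slc27a1 held 64.6% and 67.1% of the summed TPM of the 5 Slc27a genes listed in Con and 74.7% and 80.3% in Fat. The summed level was 94.6 ± 6.44 TPM in Con and 141.4 ± 16.4 TPM in Fat (SD, n = 2 each; exact permutation p = 0.333, the smallest possible). Slc27a6, the next of the family, was at 12.9 and 13.0 CPM in Con and 11.6 and 9.17 CPM in Fat. Both Fat values were the lower, and its log2 fold change of -0.33 was not called (limma adjusted p = 0.148). It was -0.16 without Fat replicate 2 and -0.50 without Fat replicate 1, with limma adjusted p = 0.566 and 0.0386, so it was called in the second case.

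Among the synthetases, Acsl5, an enzyme found on mitochondria and endoplasmic reticulum, gave 207.5 and 209.3 CPM for Con, then 181.4 and 170.1 CPM for Fat. The Fat libraries were both low, and the groups did not overlap. Its mean fell from 208.4 ± 1.30 to 175.8 ± 7.95 CPM (SD, n = 2 each), a change of -0.25 in log2 units with a standard error of 0.06 (limma adjusted p = 0.0372). The limma call was lost without Con replicate 1 (adjusted p = 0.0801), Con replicate 2 (0.0708) or Fat replicate 2 (0.222) and with the TPM values (0.0814), while the log2 fold change stayed between -0.29 and -0.20. In GENCODE vM21 its exons overlap those of Zdhhc6 on the opposite strand by 404 of 4864 bases. Zdhhc6 was at 37.3 to 40.0 CPM. Whether the counting used strand is not given in the sources used here, so reads from the overlapping bases cannot be told apart.

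Acsl1, a synthetase of adipocytes, liver and heart that inflammatory macrophages also use, was at 95.6 and 79.5 CPM in Con and at 72.1 and 58.1 CPM in Fat. Con replicate 1 was high and Fat replicate 2 low, and the groups did not overlap. The log2 fold change was -0.43 (standard error 0.12, 95% interval -0.70 to -0.15, limma adjusted p = 0.0692), so it was the larger estimate of the pair but not called, and the difference between Acsl1 and Acsl5 was not tested. Limma called it without Con replicate 2 (log2 fold change -0.56, adjusted p = 0.0140) and without Fat replicate 1 (-0.58, adjusted p = 0.0121). Without Con replicate 1 or Fat replicate 2 it was -0.30 and -0.27 (limma adjusted p = 0.196 and 0.241). On the recovered reads it was called by edgeR's exact test (adjusted p = 0.0111) and DESeq2 (adjusted p = 0.0103), and not by edgeR's quasi-likelihood test (adjusted p = 0.0671). Of its exon bases, 1039 of 10483 overlap the gene model Gm45244 on the opposite strand, which was not listed here.

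Acsl3 and Acsl4 differed little between the media. Acsl3, which sits on lipid droplets and the endoplasmic reticulum, lay between 25.7 and 28.0 CPM, with the Fat libraries the higher pair. Its log2 fold change was 0.08 (95% interval -0.08 to 0.23, limma adjusted p = 0.540). Of its 4357 exon bases, 244 overlap Utp14b on the same strand. Acsl4, the synthetase that prefers arachidonic and other polyunsaturated acids, lay between 131.9 and 141.8 CPM, and its log2 fold change was -0.04 (95% interval -0.17 to 0.09, limma adjusted p = 0.691). These intervals leave out a change of the size seen for Slc27a1.

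**Figure D3:**
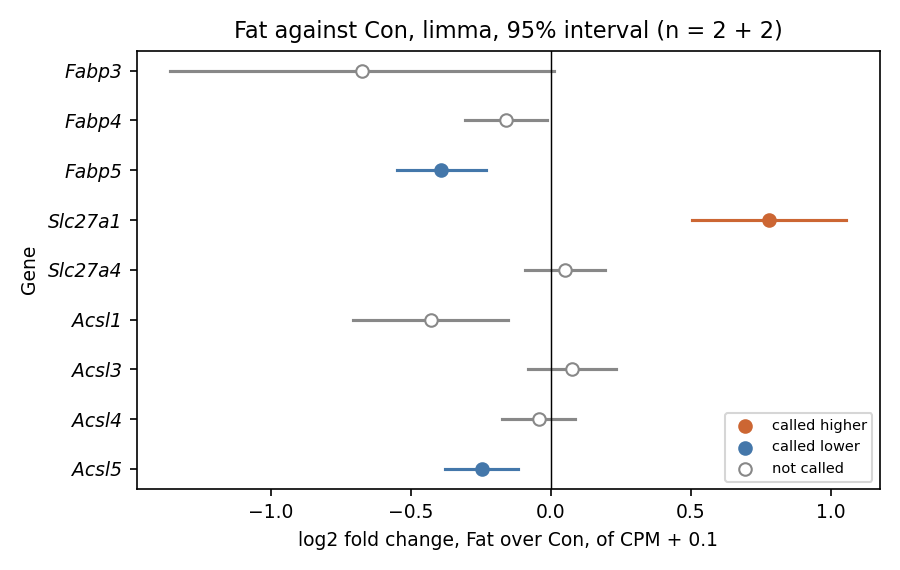
Log2 fold change of CPM + 0.1, Fat over Con, for the 9 genes, with limma's 95% interval (n = 2 each). The filled points are the called genes (orange, higher: Slc27a1 at 0.78; blue, lower: Fabp5 at -0.39 and Acsl5 at -0.25), and the open points are not called.

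Within the Acsl family the mixture differed by a few percentage points. Acsl5 held 53.6% and 55.1% of the family's summed TPM in Con and 52.6% and 53.5% in Fat. Acsl4 held 21.1% and 22.3% in Con and 24.0% and 24.8% in Fat, and Acsl1 20.0% and 17.0% in Con and 16.9% and 14.8% in Fat. Acsl5 thus remained the main transcript of the family in all 4 libraries. The family's summed level was 263.8 ± 7.25 TPM in Con and 233.0 ± 13.7 TPM in Fat (SD, n = 2 each; exact permutation p = 0.333). Acsl6 had 6 reads in each Con library and 3 in each Fat library.

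By level per gene length, the order of the 9 genes was the same in both media: Fabp5, Fabp4, Acsl5, Slc27a1, Acsl4, Acsl1, Slc27a4, Acsl3 and Fabp3. In Con the libraries of neighbours did not overlap, although Slc27a1 (62.3 ± 5.98 TPM) and Acsl4 (57.2 ± 0.593 TPM) differed by less than the larger SD. In Fat, Slc27a1 (109.9 ± 18.3 TPM) lay closer to Acsl5 (123.6 ± 5.67 TPM), and these were the only neighbours whose libraries overlapped. Relative to Acsl5, the TPM of Slc27a1 was 0.403 and 0.467 in Con and 0.760 and 1.03 in Fat. Among all 17013 genes, Fabp5 ranked 29th and 30th by TPM in Con and 37th and 39th in Fat, and Slc27a1 ranked 2502nd and 2159th in Con and 1467th and 1147th in Fat.

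Genes around acyl-CoA were taken from 6 lists chosen by function. Some lists hold genes that handle acyl-CoA once it is made. The others hold further FABP, SLC27A and synthetase genes, and genes of fatty acid uptake and nuclear receptors. One list held acyl-CoA binding proteins and thioesterases (enzymes that release the fatty acid again), with a median log2 fold change of 0.10. Of its 15 tested genes, 3 were called higher and 1 lower, against 3.99% and 5.0% of all genes. At an unadjusted limma p-value under 0.05, 6 were higher and 1 lower. Acot1, a cytosolic thioesterase, went from 0.767 and 1.28 CPM in Con to 2.84 and 4.20 CPM in Fat, or by 1.70 in log2 units with a standard error of 0.28 (limma adjusted p = 0.0145). Acot4, a peroxisomal one, went from 0.944 and 0.880 to 2.09 and 2.24 CPM, or by 1.16 with a standard error of 0.20 (limma adjusted p = 0.0153, and 0.0666 without Fat replicate 2). Both had Fat libraries above all Con libraries, at low levels. The part of the adipocyte RNA seen in Fat in these levels was not tested. Of the Acot1 stretches 22.8% were shared with other genes, mostly Acot2, the mitochondrial form, whose log2 fold change of 0.60 was not called (limma adjusted p = 0.0591). Dbi, the acyl-CoA binding protein, rose by 0.27 in log2 units (limma adjusted p = 0.0479), a call lost without Con replicate 1, Fat replicate 1 or Fat replicate 2 and in 6 other alternatives. Acot9, another mitochondrial thioesterase, fell by 0.27 in log2 units (limma adjusted p = 0.0378), a call lost without Con replicate 1, Fat replicate 1 or Fat replicate 2, and 29.3% of its stretches were shared, with Acot10.

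On the route into glycerolipids, 3 of 13 tested genes were called higher and 0 lower in limma, with a median of 0.10. Among all tested genes 3.99% were called higher and 5.0% lower, so 0 lower is near the share of all genes. At an unadjusted limma p-value under 0.05, 4 were higher and 0 lower. The share of all genes at that unadjusted limit was not computed, for any of these lists. Agpat3, which adds the second acyl chain, rose by 0.51 in log2 units (limma adjusted p = 0.00447), Dgat1, which completes triglyceride, by 0.48 (adjusted p = 0.0170), and Lpin2, a phosphatidate phosphatase, by 0.39 (adjusted p = 0.0145). All 3 stayed called with each library left out in turn. In the carnitine shuttle, which carries acyl groups into mitochondria, the median was 0.15. At an unadjusted limma p-value under 0.05, 3 of 8 were higher and 0 lower. After adjustment 2 of 8 were called higher and 0 lower, against 3.99% and 5.0% of all genes. These were Cpt1a, the entry enzyme, at 211.6 and 195.7 CPM in Con and 319.0 and 312.8 CPM in Fat, and Slc25a20, the carnitine carrier, at 36.3 and 36.4 CPM in Con and 56.9 and 56.0 CPM in Fat. Their log2 fold changes were both 0.63 (limma adjusted p = 0.00316 and 0.00297). Of the 8 genes of this list, 5 lay above Con in both Fat libraries, 1 lay below and 2 overlapped. Among all tested genes 29.4% lay above and 26.2% below. Of the synthetases, Acsl1 and Acsl5 lay below Con in both Fat libraries, Acsl3 lay above and Acsl4 overlapped.

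Acyltransferases that place acyl-CoA in phospholipids were mixed, with a median of -0.12. Of 9 tested, 1 was called higher and 2 lower, against 3.99% and 5.0% of all genes. At an unadjusted limma p-value under 0.05, 1 was higher and 4 lower. Lpcat3, which favours polyunsaturated chains, rose by 0.27 in log2 units (limma adjusted p = 0.0255, lost without Con replicate 1, Fat replicate 1 or Fat replicate 2). Lpcat2 fell by 0.62 (limma adjusted p = 0.0205) and Lpcat1 fell by 0.28 (adjusted p = 0.0369), the latter not called with any 1 library left out. Of the 24 other FABP, SLC27A and acyl-CoA synthetase genes, 8 were tested and 0 were called by limma, against 9.0% of all genes. Their median was 0.07, with 0 higher and 1, Slc27a6, lower at an unadjusted limma p-value under 0.05. In the list of uptake and nuclear receptor genes, the median was 0.03. At an unadjusted limma p-value under 0.05, 2 of 6 were higher and 1 lower. After adjustment 0 of 6 were called higher and 1 lower, against 3.99% and 5.0% of all genes. The gene called lower was Pparg, the nuclear receptor that controls Fabp4 in fat cells and macrophages, with 32.8 and 37.7 CPM in Con and 22.9 and 20.9 CPM in Fat (log2 fold change -0.68, limma adjusted p = 0.00639). Cd36, the fatty acid translocase, was at 9199 and 10370 CPM in Con and 12638 and 12398 CPM in Fat, a log2 fold change of 0.36 that limma did not call (adjusted p = 0.163), and that edgeR's exact test and DESeq2 did.

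**Figure D4:**
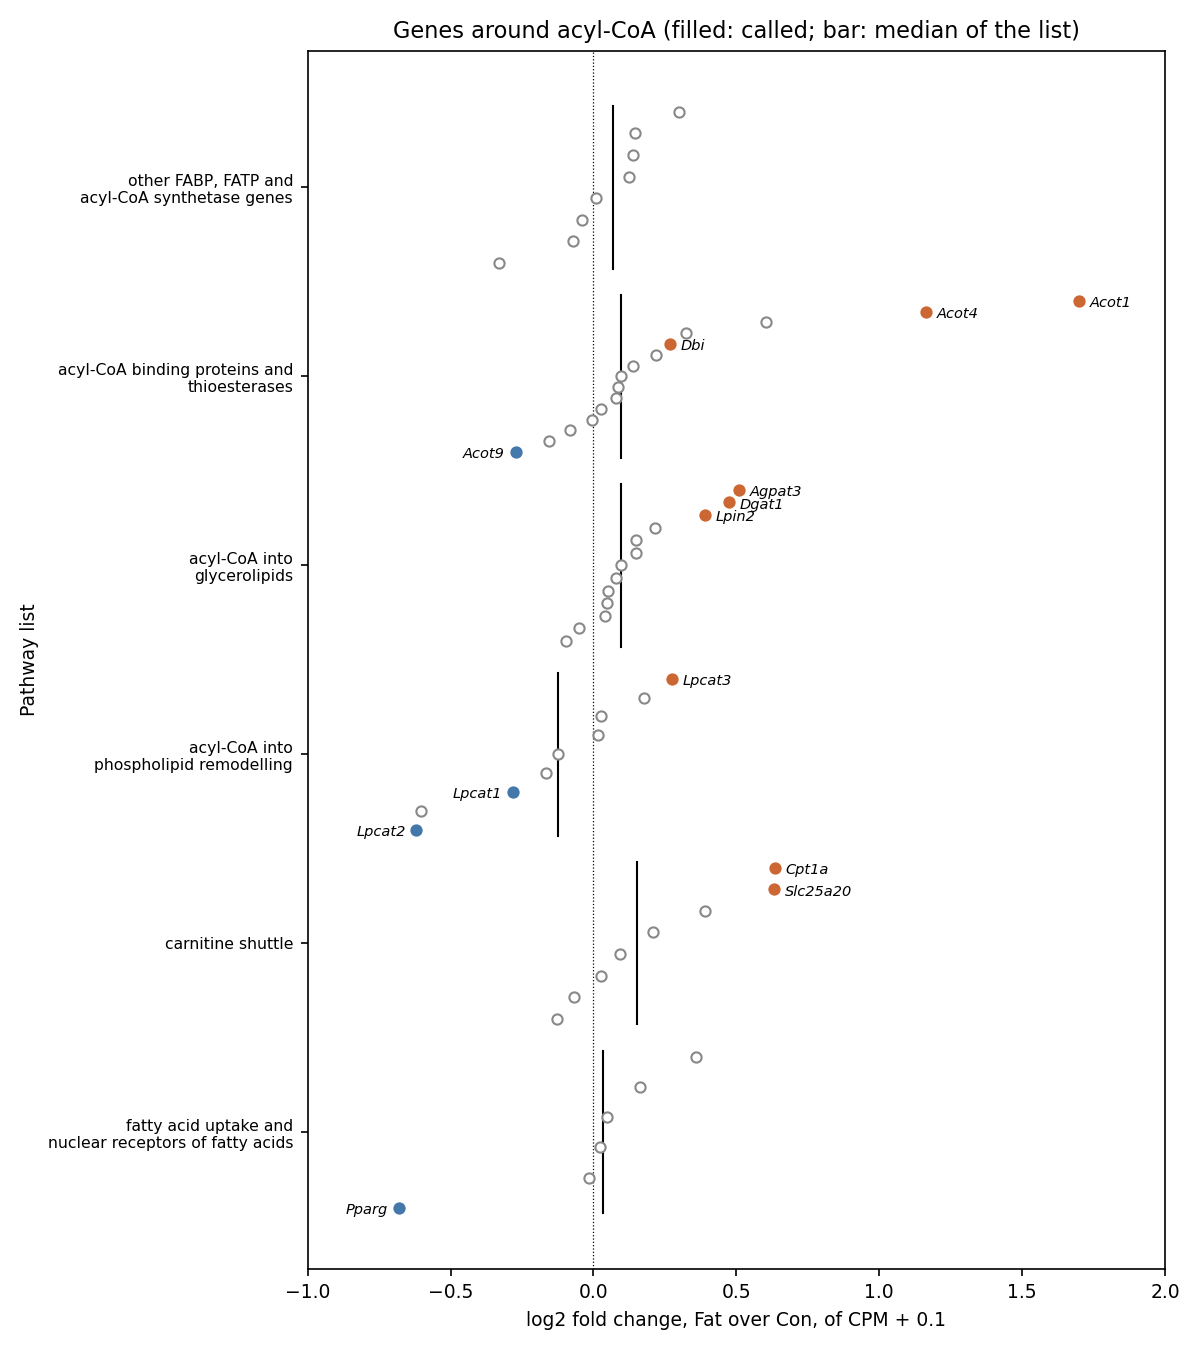
Log2 fold change of CPM + 0.1, Fat over Con, for the tested genes of the 6 lists around acyl-CoA, with 1 point for each gene and a black bar at each list's median (between -0.12 and 0.15). Filled points are called (orange, higher; blue, lower) and named, with Acot1 at 1.70 and Acot4 at 1.16 farthest to the right and Pparg at -0.68 farthest to the left.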

How the data were processed

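The authors grew the macrophages and made stranded libraries for single reads of 75 bases, and they deposited CPM values and TPM values for each of 4 libraries. CPM, as deposited by the authors, are reads divided by library size and by a further factor between 0.990 and 1.01, and TPM, as deposited by the authors, are also scaled by gene length. Both were made per library and without pooling. The submitters' processing notes list the build GRCm39, and edgeR is the tool the study names for its comparison. The aligner, the counter and its strand setting, and the annotation are not given in the sources used here. Groups were taken from the control and high-fat names in the labels.

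Reads were recovered from CPM as whole multiples of each library's step, which came out whole for 100% of the values within 0.001 reads. Limma 3.58.1 in R 4.3.3 was fitted to log2(CPM + 0.1) with a mean-variance trend over the 12470 genes that reached 0.5 CPM in 2 or more libraries, with Benjamini-Hochberg adjustment. A fold change on this scale understates the change of low genes. On the recovered reads, edgeR 4.0.16 called 1138 genes by its quasi-likelihood test, and its exact test and DESeq2 1.42.0 were run too. The fit was also repeated with 1 CPM as the pseudocount, without the filter, on genes averaging 5 CPM or more, on TPM, after median-ratio rescaling of CPM, with a replicate block, without the trend, and leaving out each library in turn. The fits were tested on simulated data. Shared sequence was sought for every stretch of 75 bases, at steps of 5, among GENCODE vM21 transcripts with BWA 0.7.19, allowing 2 mismatches. Promoters are RefSeq entries of GRCm38.p6. Family shares and sums were computed from TPM with Python 3.11.15.

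The genes named are the 9 of the set, the called genes of 6 lists (up to 4 with the smallest adjusted p in each direction and any other called gene), and the markers at 0 reads. Fabp7, Slc27a6, Acsl6, Acot2, Cd36, Car3, Xist, Ddx3y, Emr1, the collagen genes and the single macrophage markers, and genes that share sequence or exons, were added after their values were seen. The set and the lists were chosen with earlier results of these data known.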

Additional observations from a re-analysis of the deposited data

How the results depend on the processing

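All 9 genes kept their direction under every alternative run (13 for Fabp3, which fails the filter on mean CPM, and 14 for the others). Changing the filter, the trend or the replicate block leaves the log2 fold change of a gene as it was. Leaving out 1 library cannot reverse a gene whose groups do not overlap. In these cases the kept direction is no further support. Without the mean-variance trend, 31 genes were called over the whole table instead of 1122, and with it went every call among the 9 genes (0 higher, 0 lower) and in the lists, of which 1 called higher was left among the acyl-CoA binding proteins and thioesterases and 0 lower, and 0 in either direction in the glycerolipid, phospholipid, carnitine and uptake lists. With TPM, 791 genes were called (425 higher, 366 lower, against 498 and 624), and 1 of the 9 genes was lower. In the acyl-CoA binding and thioesterase list 0 genes were then lower, and 0 in the phospholipid list. A mean of at least 5 CPM left 0 genes of the acyl-CoA binding and thioesterase list called higher. Acot1 and Acot4 lie below it, and Dbi, which passes it, was not called (limma adjusted p = 0.0540). This filter moved the median of the phospholipid list to 0.017 and of the carnitine list to 0.24. Without the filter the median of the other FABP, SLC27A and synthetase genes was -0.039. DESeq2 called 1 phospholipid gene lower, and DESeq2 and edgeR's exact test each called 1 uptake gene, Cd36, higher. In CPM instead of TPM the share of Fabp4 moved by 1.54 percentage points and that of Fabp5 by -3.19, against 1.94 and -3.79. Apart from the loss of filtered genes, the cause was not tested.

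Leaving out 1 library at a time called between 529 genes (without Fat replicate 2) and 1131 genes. It gave 0 to 3 of the 9 genes lower, with a median between -0.23 and -0.090. The other FABP, SLC27A and synthetase genes had 0 to 1 lower and a median between -0.0071 and 0.17. The thioesterase list had 1 to 3 higher, 0 to 1 lower and a median between 0.10 and 0.18. The glycerolipid median lay between 0.094 and 0.17. The phospholipid list had 0 to 1 higher, 1 lower and a median between -0.14 and 0.023. The carnitine median lay between 0.078 and 0.22 and that of the uptake list between -0.017 and 0.088. The lone library of a medium was then assumed to vary like the other medium.

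The replicate numbers are shared between media, but nothing in the labels says that they mark a culture or day, and with 2 pairs the correlation of deviations of 0.20 over 12470 genes does not settle it. With the number as a replicate block, 2520 genes were called (1278 higher, 1242 lower). In the list of acyl-CoA binding proteins and thioesterases, 6 genes were then called higher, Dbi among them. Of the other FABP, SLC27A and synthetase genes 1, Slc27a6, was lower (limma adjusted p = 0.0186), and Acsl1 was called (limma adjusted p = 7.97e-07). Fabp3 rests on 26 to 53 reads a library.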
